A study of Homo sapiens with 8 samples.

Results

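The histone genes were followed in polyadenylated RNA from confluent cultures of Ea.hy926, a human hybrid line that arose from a fusion of endothelial cells of the umbilical vein (HUVEC) with the lung carcinoma line A549. Members were chosen by gene symbol: protein-coding genes of the HIST1, HIST2, HIST3 and HIST4 families (71 genes, called cluster histones here) and the replacement histone genes H1F0, H1FX, H2AFX, H2AFZ, H2AFV, H2AFY, H2AFJ, H3F3A and H3F3B (9 genes), together 80 of the 38010 gene IDs measured. The Rho0 line, an Ea.hy926 derivative deficient in oxidative phosphorylation, gave 4 libraries, and the parental Ea.hy926 line gave 4. Both were grown to confluence. Each is 1 line, so a difference between the lines that has nothing to do with respiration cannot be told apart from one that has. Replicates are labelled biological, and the spread behind each p-value is that between cultures of 1 line.

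Nucleosomes wrap DNA around pairs of the core histones H2A, H2B, H3 and H4, and linker histone H1 binds where DNA enters and leaves. Most core histone protein comes from cluster genes that are switched on in S phase, when new DNA must be packaged. Their mRNAs usually end in a conserved stem-loop bound by SLBP instead of a poly(A) tail, so a library made by poly(A) enrichment catches few of them. Replacement histones are mostly made throughout the cell cycle from ordinary polyadenylated mRNAs, and most can enter chromatin outside replication. Some cluster genes also give polyadenylated transcripts, which have been described in differentiated and non-dividing cells.

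The ends of the annotated transcripts show both kinds of mRNA. In GENCODE 29 (GRCh38), 12 of the 71 cluster genes had a transcript with a match to the histone stem-loop in its last 100 bases, against 0.025% of 19842 other protein-coding genes and 0 of the 9 replacement genes. The poly(A) signal letters AATAAA or ATTAAA were in the last 50 bases of an annotated transcript for 23 of 71 cluster genes. They were there for 9 of 9 replacement genes and for 84.4% of the other protein-coding genes. These are letter matches and not measured poly(A) addition. Many cluster models stop at the coding end, so a missing match says only that these letters are not in the annotated window. The stem-loops of 4 measured members and of HIST1H3E, whose core was found in 1 cluster gene, are shown 5′ to 3′ as DNA letters, with the stem-loop in capitals.
HIST1H2BD: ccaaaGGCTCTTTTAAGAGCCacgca
HIST1H4J: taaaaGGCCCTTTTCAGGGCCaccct
HIST2H2AA4: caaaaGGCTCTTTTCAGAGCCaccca
HIST1H2BN: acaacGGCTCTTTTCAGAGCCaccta
HIST1H3E: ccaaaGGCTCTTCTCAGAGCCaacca
The core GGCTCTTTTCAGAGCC was found in 7 cluster genes and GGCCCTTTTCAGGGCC, as in HIST1H4J, in 2. HIST1H2BD carries its stem-loop in a transcript of 496 bases. Every gene shown here, HIST1H2BD and HIST1H4J alike, also has the poly(A) signal letters near the end of an annotated transcript.

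Promoters of the members were read from RefSeq (GRCh38.p14, 250 bases before to 50 after the start), which matched 65 cluster and 8 replacement genes. The CCAAT box (CCAAT, either strand) was in 100% of the cluster H2A, H2B, H3 and H1 promoters and in 3 of 13 H4 promoters, against 35.6% of 27232 other promoters. The octamer ATTTGCAT was in 11 of 16 H2A and 14 of 18 H2B promoters and in 0 of 13 H4 promoters, against 1.7% of the others. The TATA box letters TATAAA were in 66.2% of cluster promoters and 11.8% of the others. The promoters of 2 cluster genes that rose in Rho0 (HIST1H2AG and HIST1H2BD), of 2 that fell (HIST1H4J and HIST1H1C) and of both H3.3 genes are shown, with these 3 motifs on either strand in capitals. A capital run can join overlapping or adjoining matches.
HIST1H2AG promoter (chr6:27132793-27133092, + strand): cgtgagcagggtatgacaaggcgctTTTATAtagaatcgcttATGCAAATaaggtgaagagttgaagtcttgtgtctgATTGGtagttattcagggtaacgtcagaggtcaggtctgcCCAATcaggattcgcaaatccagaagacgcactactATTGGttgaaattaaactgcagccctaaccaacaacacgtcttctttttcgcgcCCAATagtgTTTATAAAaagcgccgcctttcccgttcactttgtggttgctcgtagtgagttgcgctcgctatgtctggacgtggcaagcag
HIST1H2BD promoter (chr6:26157871-26158170, + strand): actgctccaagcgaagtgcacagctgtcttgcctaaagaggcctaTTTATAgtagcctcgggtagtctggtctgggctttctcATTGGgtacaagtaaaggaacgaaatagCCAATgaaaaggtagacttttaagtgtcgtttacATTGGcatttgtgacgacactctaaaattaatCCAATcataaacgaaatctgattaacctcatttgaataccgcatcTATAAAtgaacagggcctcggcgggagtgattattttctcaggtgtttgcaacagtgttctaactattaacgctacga
HIST1H4J promoter (chr6:27823842-27824141, + strand): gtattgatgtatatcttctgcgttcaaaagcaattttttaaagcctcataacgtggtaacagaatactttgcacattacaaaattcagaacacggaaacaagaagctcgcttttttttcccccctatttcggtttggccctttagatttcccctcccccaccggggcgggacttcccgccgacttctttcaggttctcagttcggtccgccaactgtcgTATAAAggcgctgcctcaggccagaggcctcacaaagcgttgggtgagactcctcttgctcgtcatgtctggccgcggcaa
HIST1H1C promoter (chr6:26056421-26056720, - strand): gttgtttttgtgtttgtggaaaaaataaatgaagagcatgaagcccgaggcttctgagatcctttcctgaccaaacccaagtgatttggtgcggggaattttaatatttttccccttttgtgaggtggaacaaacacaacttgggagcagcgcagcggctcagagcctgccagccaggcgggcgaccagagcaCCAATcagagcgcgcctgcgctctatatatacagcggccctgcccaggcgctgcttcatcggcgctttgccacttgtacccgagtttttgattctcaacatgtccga
H3F3B promoter (chr17:75779730-75780029, - strand): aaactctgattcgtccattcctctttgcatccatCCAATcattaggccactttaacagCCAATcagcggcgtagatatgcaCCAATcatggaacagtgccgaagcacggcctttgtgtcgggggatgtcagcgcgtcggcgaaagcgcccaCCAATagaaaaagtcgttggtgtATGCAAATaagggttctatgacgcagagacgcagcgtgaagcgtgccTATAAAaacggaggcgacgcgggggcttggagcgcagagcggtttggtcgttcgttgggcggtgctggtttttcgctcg
H3F3A promoter (chr1:226061581-226061880, + strand): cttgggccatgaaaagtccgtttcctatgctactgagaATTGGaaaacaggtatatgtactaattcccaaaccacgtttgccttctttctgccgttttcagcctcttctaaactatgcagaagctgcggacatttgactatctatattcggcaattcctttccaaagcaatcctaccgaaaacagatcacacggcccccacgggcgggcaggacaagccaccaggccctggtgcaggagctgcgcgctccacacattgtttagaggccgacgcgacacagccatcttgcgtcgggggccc
HIST1H2AG holds all 3 motifs, as H3F3B does, whereas H3F3A has a single CCAAT match and HIST1H4J only the TATA letters. These matches are letters in a window and not measured binding.

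Library totals ranged from 11721708 to 37203507 estimated counts in Rho0 and from 23366190 to 28599386 in the parental line, so 1 count was worth 0.0225 to 0.0753 CPM (counts scaled to library size and TMM factor) in Rho0 and 0.0398 to 0.0516 CPM in the parental line. The shallowest library was Rho0 replicate 2, and Rho0 replicate 4 and parental replicate 3 lay farthest from the other libraries of their lines on the second principal component (6.24% of variance). The endothelial markers PECAM1 (2118 ± 67.2 CPM in Rho0, 1086 ± 41.4 CPM in the parental line), CDH5 (1034 ± 32.7 and 1718 ± 92.5 CPM) and VWF (229 ± 19.3 and 166 ± 4.23 CPM; SD, n = 4 each) were present in both lines, and CLDN5 was under 1 CPM. Of 11 endothelial markers tested, 4 rose and 4 fell in Rho0, and of 5 epithelial markers tested 1 rose and 2 fell. Of all 15184 genes tested (quasi-likelihood F-test of edgeR, threshold of 0.05 on p after Benjamini-Hochberg adjustment), 54.4% were called, 29.0% higher and 25.4% lower in Rho0, with a median log2 fold change of 0.05. Scaling by library size alone moved that median to 0.44, and fold changes are read relative to the median.

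Replacement histones supplied nearly all histone RNA in these libraries. Their summed level was 1174, 1065, 1038 and 1025 CPM in Rho0 replicates 1 to 4, against 1333, 1384, 1445 and 1376 CPM in parental replicates 1 to 4. The 71 cluster genes together had 34.9, 31, 31.8 and 30.9 CPM in Rho0 and 40.3, 37.7, 40.1 and 39.6 CPM in the parental line. Both sums were lower in every Rho0 library than in every parental library, with log2 ratios of the means of -0.36 for the replacement genes and -0.30 for the cluster genes. These sums were described and not tested. With library size alone, the ratios were 0.03 and 0.09, so that the direction of both sums rests on the scaling. The cluster share of histone CPM does not depend on it, at 2.90 ± 0.0608% in Rho0 and 2.77 ± 0.124% in the parental line (SD, n = 4 each). Per length (CPM per kb of the median annotated transcript), the replacement sum was 19.6 ± 0.302 times the cluster sum in Rho0 and 19.7 ± 0.84 times in the parental line.

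**Figure D1:**
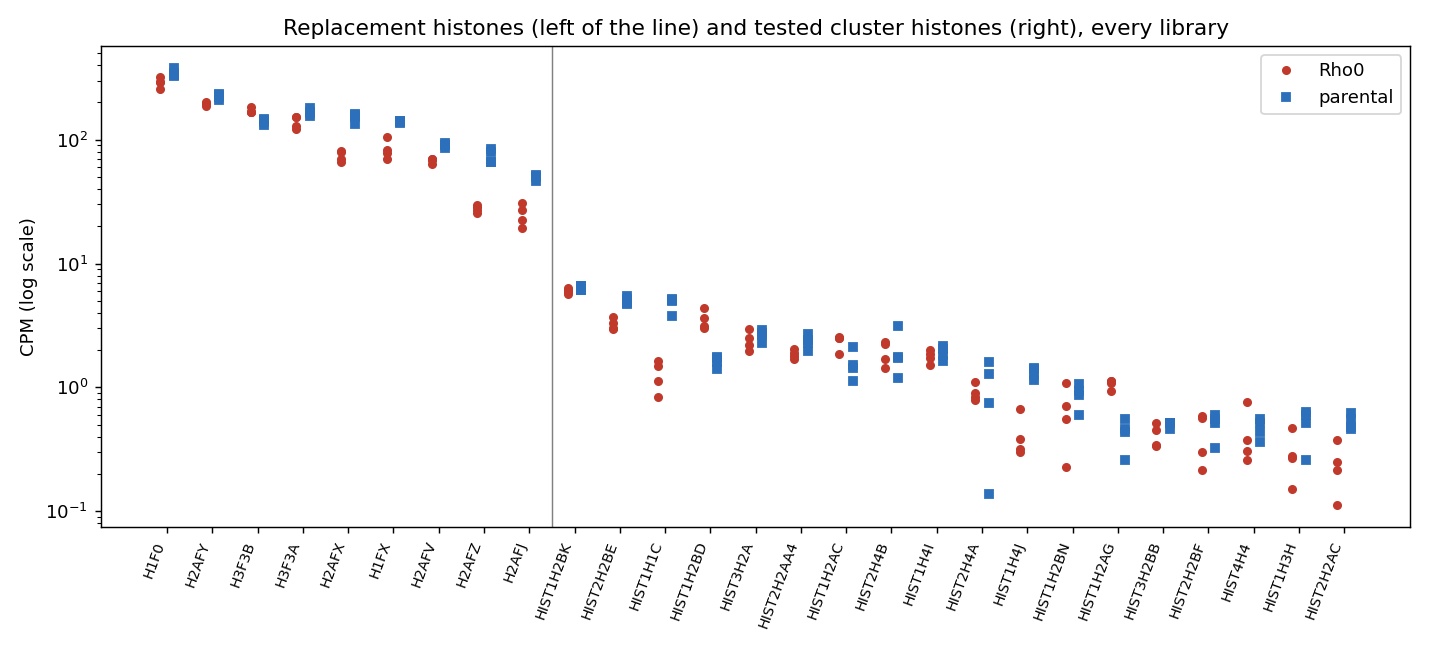
CPM of each replacement histone and of each tested cluster histone in every library (log scale), Rho0 as circles left of parental as squares. Replacement genes lie between 19.5 and 381 CPM and tested cluster genes between 0.112 and 6.56 CPM.

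Per length, the order of the mean levels of the replacement genes was not the same in both lines. The order depends on the length used, since annotated transcripts span 293 to 10982 bases for H2AFY and 468 to 2787 bases for H3F3B. In Rho0 the mean levels were 218 CPM per kb for H3F3B, 171 for H2AFY, 124 for H1F0, 117 for H3F3A, 103 for H2AFV, 55.9 for H1FX, 49.7 for H2AFX, 31.8 for H2AFJ and 24.8 for H2AFZ. In the parental line H2AFY led with 196 CPM per kb, before H3F3B (179), H1F0 (148), H3F3A (139), H2AFV (137), H2AFX (102), H1FX (92.6), H2AFZ (66.5) and H2AFJ (63.4). Neighbours whose libraries overlapped on this scale were H1F0 and H3F3A, H3F3A and H2AFV, H1FX and H2AFX, and H2AFJ and H2AFZ in both lines, and H2AFY and H3F3B in the parental line. Among tested cluster genes HIST1H2BK stood highest on this scale, at 15.8 CPM per kb in Rho0 and 16.6 in the parental line, below every replacement gene. Its annotated model is 381 bases long.

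Of the 9 replacement genes, 8 fell and 1 rose in Rho0, with a median log2 fold change of -0.41, against 54.4% of all genes called (29.0% higher, 25.4% lower) and a median of 0.05. With library size alone, which called 66.7% of all genes (56.5% higher and 10.1% lower), 4 fell (H2AFZ, H2AFX, H2AFJ and H1FX) and 2 rose (H3F3B and H2AFY), with a median of -0.02 against 0.44 over all genes.

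H2A.Z, an H2A variant at promoters and enhancers, is encoded by H2AFZ and H2AFV, and H2AFZ had the largest log2 fold change of the 9 replacement genes. H2AFZ (chromosome 4, 99948086 to 99950388) had 28.5, 27.0, 25.8 and 29.6 CPM in Rho0 replicates 1 to 4, against 66.5, 80.1, 65.7 and 84.5 CPM in parental replicates 1 to 4. The highest Rho0 library lay far below the lowest parental library (log2 fold change -1.42 with SE 0.10, edgeR adjusted p = 8.2e-07). H2AFV (chromosome 7, 44826791 to 44848083) had 69.4, 69.6, 69.1 and 63.3 CPM in Rho0, against 90.9, 86.2, 93.6 and 90.8 CPM in the parental line. It fell by 0.41 on the log2 scale (SE 0.06, edgeR adjusted p = 3.0e-04), and was at -0.02 and not called with library size alone. The ratio of H2AFV to H2AFZ, which no library scaling can move, was 2.46 ± 0.236 in Rho0 and 1.24 ± 0.186 in the parental line (SD, n = 4 each) and did not overlap between the lines. This ratio was singled out after its values were seen and was not tested.

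H3.3, the H3 variant of transcribed chromatin, is encoded as the same protein by H3F3A and H3F3B, and the pair moved apart. H3F3B (chromosome 17, 75776434 to 75785893) had 183, 168, 168 and 167 CPM in Rho0 replicates 1 to 4, against 132, 143, 139.9 and 146 CPM in the parental line (log2 fold change 0.29 ± 0.06 SE, edgeR adjusted p = 0.00339). H3F3A (chromosome 1, 226061851 to 226072001) had 153, 123, 130.3 and 152 CPM in Rho0, against 155, 163, 181 and 168 CPM in the parental line (log2 fold change -0.25 ± 0.09 SE, edgeR adjusted p = 0.0309). Every Rho0 library was above the parental ones for H3F3B and below them for H3F3A. The ratio of H3F3B to H3F3A was 1.24 ± 0.113 in Rho0 and 0.844 ± 0.0488 in the parental line (SD, n = 4 each), again without overlap, and was likewise singled out after its values were seen and not tested. Their sum was 311 ± 20.5 CPM in Rho0 and 307 ± 14.7 CPM in the parental line. The call of H3F3A was lost without any 1 of Rho0 replicate 2 or 3 or parental replicates 2, 3 and 4 (edgeR adjusted p = 0.0547 to 0.0823) and with no filter on low counts (0.060), and it was at 0.14 with library size alone.

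**Figure D2:**
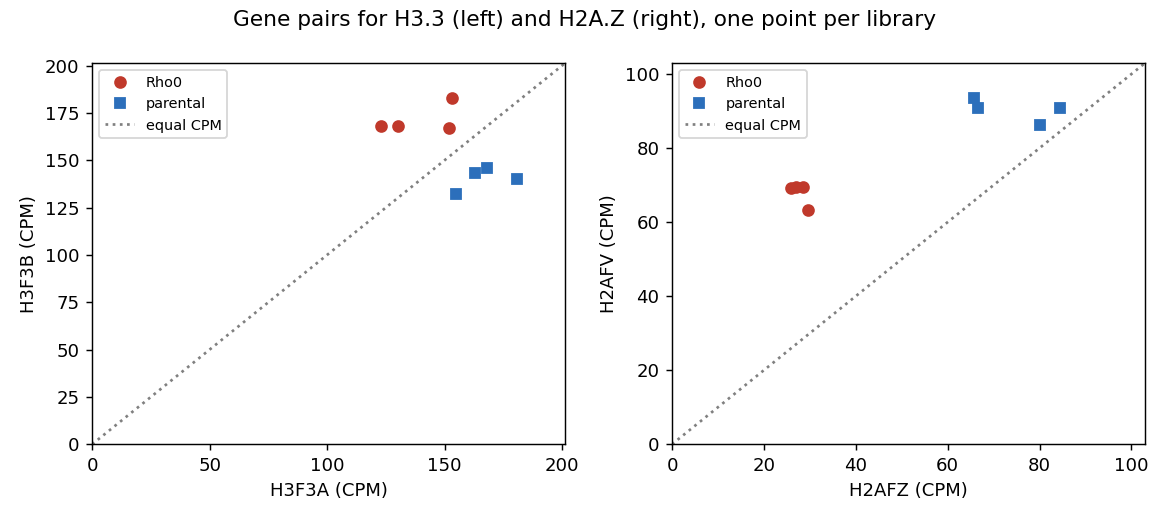
CPM of H3F3B against H3F3A (left) and of H2AFV against H2AFZ (right), 1 point per library, Rho0 as circles and parental as squares, with the dotted line at equal CPM. All Rho0 points lie above the line for H3.3 and all parental points below it, and Rho0 points lie farther from it for H2A.Z.

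Other H2A variants were lower in Rho0. H2AFX, whose product is phosphorylated at DNA breaks, had 81.7, 79.9, 65.7 and 69.8 CPM in Rho0, against 135, 159, 161 and 154 CPM in the parental line (log2 fold change -1.04 ± 0.09 SE, edgeR adjusted p = 4.8e-06). H2AFJ, an H2A variant known to build up in senescent human fibroblasts, had 30.9, 27.0, 22.6 and 19.5 CPM in Rho0, against 46.5, 51.8, 50.4 and 50.5 CPM in the parental line (log2 fold change -1.0 ± 0.13 SE, edgeR adjusted p = 7.8e-05). Neither gene's groups overlapped. H2AFY, which encodes macroH2A1, a large variant of silenced chromatin, had 195 ± 4.64 CPM in Rho0 and 224 ± 9.87 CPM in the parental line (SD, n = 4 each). Its small decrease had a log2 fold change of -0.20 (edgeR adjusted p = 0.0185). With library size alone H2AFY was called higher, at 0.19 (edgeR adjusted p = 0.0101), though below the median of all genes. Its call was also lost without Rho0 replicate 3 (edgeR adjusted p = 0.0503) or parental replicate 2 (0.0585), with no filter on low counts (0.0748) and with the replicate number as a block (0.0553).

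Of the linker variants, H1FX fell in Rho0 by 0.73 on the log2 scale, with 106, 82.7, 77.9 and 70.4 CPM against 137, 141, 138 and 141 CPM in the parental line (SE 0.11, edgeR adjusted p = 3.0e-04). Rho0 replicate 1 was the nearest to the parental libraries. H1F0, the linker histone typical of differentiated and resting cells, was the histone gene with the highest CPM in both lines. It had 321, 292, 290.2 and 257 CPM in Rho0, against 347, 331, 381 and 329 CPM in the parental line (log2 fold change -0.26 ± 0.08 SE, edgeR adjusted p = 0.0225). Its nearest libraries of the lines differed by little, and the call was lost without Rho0 replicate 2 or 3 or parental replicate 1 or 3 (edgeR adjusted p = 0.050 to 0.0628), while library size alone gave 0.13, not called.

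**Figure D3:**
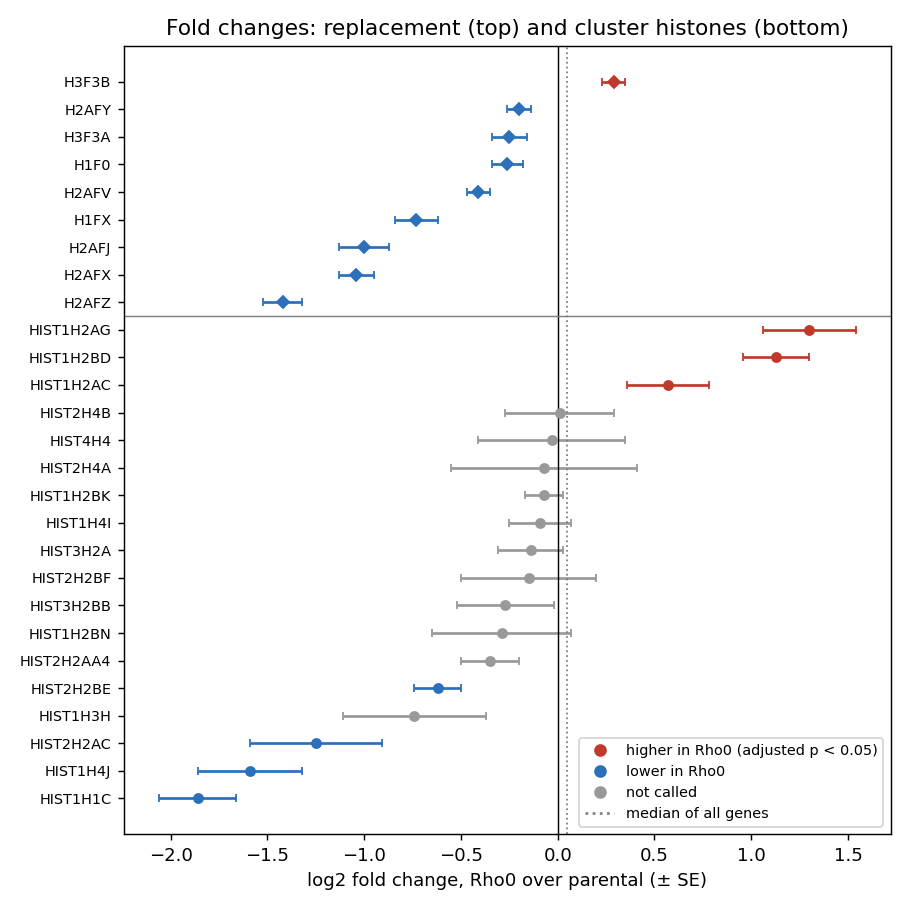
Log2 fold changes (Rho0 over parental, ± SE) of the 9 replacement genes (diamonds, top) and the 18 tested cluster genes (circles, bottom), with called genes in colour. Replacement genes run from -1.42 to 0.29 and cluster genes from -1.86 to 1.30.

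Among cluster histones, most members were too low to test. Of 71 genes, 9 had no count in any library, 37 more stayed under 10 counts in every library, and 18 passed the filter on low counts. Of those 18, 3 rose, 4 fell and 11 were not called, with a median log2 fold change of -0.15, against 54.4% called (29.0% higher, 25.4% lower) and a median of 0.05 over all genes tested. A member can pass the filter through 1 line alone, so these shares describe the tested genes and not the family. A few genes carried the signal: HIST1H2BK alone gave 17.3% of cluster CPM and the first 10 members gave 76.0%.

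The 3 genes that rose were an H2B and 2 H2A genes, all on chromosome 6 and all with a poly(A) signal in an annotated transcript. Neither trait was particular to them: of the 18 tested cluster genes, 12 had such a signal and 9 were on chromosome 6. Of the 4 that fell, 2 had the signal and 2 were on chromosome 6. HIST1H2BD (chromosome 6, 26158146 to 26171349) had 3.62, 3.16, 4.37 and 3.04 CPM in Rho0 replicates 1 to 4, against 1.74, 1.75, 1.60 and 1.40 CPM in the parental line (log2 fold change 1.13 ± 0.17 SE, edgeR adjusted p = 2.1e-04). HIST1H2AG (chromosome 6, 27133042 to 27135291), whose promoter is shown above, had 1.12, 1.13, 0.943 and 1.08 CPM in Rho0, against 0.551, 0.437, 0.258 and 0.465 CPM in the parental line (log2 fold change 1.30 ± 0.24 SE, edgeR adjusted p = 0.00104). Neither gene had overlapping groups. HIST1H2AC had 2.53, 2.49, 2.49 and 1.85 CPM in Rho0, against 2.11, 1.51, 1.13 and 1.44 CPM in the parental line, and its groups overlapped. Its call (log2 fold change 0.57, edgeR adjusted p = 0.0372) was lost without any 1 of Rho0 replicates 1 to 3 or parental replicates 2 to 4 and with the DESeq2 Wald test (adjusted p = 0.0701 to 0.103 over these).

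The 4 genes that fell belonged to 4 classes. HIST1H1C, a linker histone and the cluster H1 gene with the highest level here (chromosome 6, 26055787 to 26056428), had 1.63, 0.829, 1.5 and 1.13 CPM in Rho0, against 3.76, 5.01, 5.05 and 5.16 CPM in the parental line. Every Rho0 library was below the parental ones (log2 fold change -1.86 ± 0.20 SE, edgeR adjusted p = 2.3e-05). HIST1H4J (chromosome 6, 27824108 to 27824480), whose model ends just after the stem-loop shown, had 0.673, 0.301, 0.386 and 0.316 CPM in Rho0, against 1.15, 1.27, 1.44 and 1.40 CPM in the parental line (log2 fold change -1.59 ± 0.27 SE, edgeR adjusted p = 6.3e-04). Only 17.8% of its 31-base words occur in no other annotated gene, so its counts can include reads of near copies. HIST2H2BE, an H2B gene with a model of 2194 bases, had 3.68, 2.94, 3.0 and 3.31 CPM in Rho0, against 4.68, 4.77, 5.52 and 5.16 CPM in the parental line (log2 fold change -0.62 ± 0.12 SE, edgeR adjusted p = 0.00147). HIST2H2BE was at -0.23 and not called with library size alone. HIST2H2AC, the divergent neighbour of HIST2H2BE with 323 bp between their starts, fell as well, at 0.238 ± 0.109 CPM in Rho0 and 0.528 ± 0.0714 CPM in the parental line (SD, n = 4 each; log2 fold change -1.25, edgeR adjusted p = 0.00982). It lies below the level set for named genes and was added after its values were seen.

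The other tested cluster genes were not called, the most abundant of them included. HIST1H2BK had 6.40, 5.88, 6.13 and 5.66 CPM in Rho0, against 6.56, 6.08, 6.14 and 6.56 CPM in the parental line, with overlapping groups (log2 fold change -0.07 ± 0.10 SE, edgeR adjusted p = 0.543). It is the H2B gene with the highest level, but only 13.7% of its 31-base words are its own, and with library size alone it was at 0.32 (edgeR adjusted p = 0.0245). HIST3H2A had 2.40 ± 0.418 CPM in Rho0 and 2.65 ± 0.278 CPM in the parental line, and HIST1H4I 1.77 ± 0.212 and 1.92 ± 0.234 CPM (SD, n = 4 each). HIST1H2BN (0.642 ± 0.355 and 0.867 ± 0.198 CPM) and HIST3H2BB (0.413 ± 0.0882 and 0.501 ± 0.0280 CPM) were close to the depth limit.

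Near-identical copies made single-gene values uncertain. Of the 71 cluster genes, 16 had under 20% of 31-base words of their own, against 0 of 9 replacement genes. Still, the estimated counts of H3F3A, H3F3B and H2AFV were not whole numbers in 100% of libraries. Such values can arise where reads are divided between genes, and the pair ratios given above can depend on that division. HIST2H4A and HIST2H4B, copies on chromosome 1, had 0.138 and 3.12 CPM in parental replicate 1 but 1.59 and 1.19 CPM in parental replicate 2. In the parental line their sum was steadier, at 2.89 ± 0.342 CPM, against SDs of 0.64 and 0.824 for the single copies. In Rho0 it was not, at 2.83 ± 0.499 CPM against SDs of 0.143 and 0.43 (n = 4 each). HIST2H2AA4 had 1.88, 2.03, 1.80 and 1.69 CPM in Rho0, against 2.71, 2.27, 1.96 and 2.42 CPM in the parental line (log2 fold change -0.35, edgeR adjusted p = 0.0776). Its copy HIST2H2AA3 was assigned counts in Rho0 replicate 2 (12 counts) and 0 in the other 7 libraries. HIST2H3A and HIST2H3C received equal counts in every library.

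Sums by class do not depend on how reads were divided between copies of a class. Cluster H1 RNA was 1.49 ± 0.455 CPM in Rho0 and 5.40 ± 0.682 CPM in the parental line, a log2 ratio of -1.86. Most of it was HIST1H1C, the 1 tested H1 gene, at 1.27 and 4.75 CPM. Cluster H3 RNA was 1.03 ± 0.186 CPM in Rho0 and 1.92 ± 0.204 CPM in the parental line, a log2 ratio of -0.89. The 1 tested H3 gene, HIST1H3H, was not called (edgeR adjusted p = 0.108). Of the 15 H3 genes, 12 had counts but stayed under 10 in every library. In both classes the lines did not overlap, and the ratios stayed below 0 with library size alone, at -1.47 and -0.50. Cluster H4 RNA was 5.77 ± 0.521 CPM in Rho0 and 7.30 ± 0.449 CPM in the parental line (log2 ratio -0.34, or 0.06 with library size alone), also without overlap. Cluster H2A was 8.53 ± 1.13 CPM in Rho0 and 8.51 ± 1.03 CPM in the parental line, and cluster H2B 15.3 ± 1.16 and 16.3 ± 0.465 CPM (SD, n = 4 each), with overlapping libraries in both classes. The 71 genes hold 6 H1, 17 H2A, 18 H2B, 15 H3 and 15 H4 genes.

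**Figure D4:**
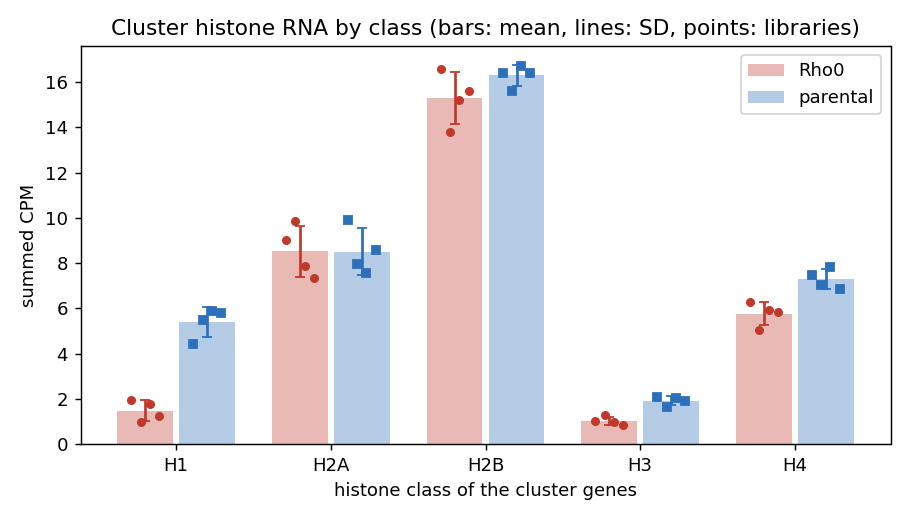
Summed CPM of the cluster genes of each histone class, Rho0 left of parental, as means (bars), SD (lines) and libraries (points). H1, H3 and H4 sums are lower in all Rho0 libraries than in all parental ones, while H2A and H2B sums overlap.

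With TMM, the cluster genes under the filter were lower as a group. The 53 untested genes together had 110, 53, 43 and 126 counts in Rho0 replicates 1 to 4, against 123, 106, 115 and 111 counts in parental replicates 1 to 4. In CPM this was 3.09, 3.99, 1.84 and 2.84 in Rho0, against 5.64, 4.21, 5.93 and 5.16 in the parental line, without overlap. By library total alone the lines overlapped, with Rho0 replicate 2 (53 of 11721708 counts) above parental replicate 2 (106 of 28599386 counts). In a fit with no filter, 62 cluster genes had a count, of which 12 fell and 3 rose, against 14.5% and 17.7% of 26141 genes (32.2% in either direction). The 12 were the 4 above, the H1 genes HIST1H1D and HIST1H1B, the H2A genes HIST1H2AJ and HIST2H2AB, the H2B gene HIST1H2BH, the H4 gene HIST1H4E and the H3 copies HIST2H3A and HIST2H3C. HIST1H2BH had 3, 3, 1 and 4 counts in Rho0, against 16, 10, 10 and 10 counts in the parental line (log2 fold change -2.37 ± 0.47 SE, edgeR adjusted p = 9.2e-04). HIST1H4E had 2, 2, 1 and 3 counts in Rho0, against 9, 5, 12 and 14 counts in the parental line (log2 fold change -2.63 ± 0.54 SE, edgeR adjusted p = 0.00124). HIST1H1B had no count in Rho0 and 2, 1, 3 and 3 counts in the parental line, too few for a fold change. The single genes of this paragraph were chosen after their values were seen.

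By annotated exons, the 13 cluster genes with a multi-exon transcript had a median level of 0.446 CPM, and the 58 with single-exon transcripts only had a median of 0.0589 CPM, but the single-exon genes include the 3 cluster genes with the highest levels (HIST1H2BK, HIST2H2BE and HIST1H1C) and had the larger summed mean level (25.8 against 9.94 CPM). In the fit with no filter, 17.7% of all 26141 genes were higher and 14.5% lower. Of the 13 multi-exon cluster genes 2 rose and 0 fell, while of 49 single-exon genes with a count 1 rose and 12 fell. For genes with the poly(A) signal letters the counts were 3 higher and 6 lower of 23, and without them 0 higher and 6 lower of 39. These are counts of members that share copies and promoters, and the classes were not tested against each other. The 2 of 13 higher and the 6 of 39 lower were near the shares over all genes.

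H2A and H2B genes often lie head to head, and 11 such pairs had starts within 1000 bp of each other. HIST1H2AG and HIST1H2BJ start 292 bp apart, and the promoter printed for HIST1H2AG overlaps that of HIST1H2BJ. HIST1H2BJ had 20, 4, 6 and 31 counts in Rho0, against 4, 6, 9 and 4 counts in the parental line, and was not called (log2 fold change 0.88 in the fit with no filter, edgeR adjusted p = 0.155). HIST1H2AC and HIST1H2BC start 219 bp apart, at 2.34 ± 0.326 and 0.130 ± 0.0799 CPM in Rho0 and 1.55 ± 0.409 and 0.210 ± 0.108 CPM in the parental line. HIST1H2BK and HIST1H2AH start 331 bp apart, at 6.02 ± 0.320 and 0.0169 ± 0.0338 CPM in Rho0 and 6.33 ± 0.261 and 0.0445 ± 0.0376 CPM in the parental line (SD, n = 4 each). The 3 pairs were chosen after their values were seen.

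Genes that act on histone mRNA were called about as often as genes in general. Of 23 genes of histone mRNA synthesis and 3′ processing, 4 rose and 8 fell (median log2 fold change 0.08). Over all genes tested, 54.4% were called (29.0% higher and 25.4% lower), with a median of 0.05. With library size alone 14 of the 23 rose and 0 fell, against 56.5% higher and 10.1% lower over all genes. SLBP, which binds the stem-loop, had 45.6 ± 2.72 CPM in Rho0 and 41.0 ± 1.98 CPM in the parental line and was not called (log2 fold change 0.15, edgeR adjusted p = 0.0919), but it was called higher with a filter of 50 counts in 4 libraries (0.18, edgeR adjusted p = 0.0462) and with library size alone (0.55, edgeR adjusted p = 1.9e-04). NPAT, the coactivator of cluster histone transcription, had 10.4, 12.2, 14.8 and 24.2 CPM in Rho0, against 15.7, 16.5, 12.8 and 17.2 CPM in the parental line, with overlapping groups (log2 fold change 0.00, edgeR adjusted p = 0.994). Without Rho0 replicate 4, its highest library, NPAT was called lower (log2 fold change -0.34, edgeR adjusted p = 0.0499). CSTF2, a cleavage factor, had 31.6 ± 0.503 CPM in Rho0 and 46.3 ± 0.483 CPM in the parental line (log2 fold change -0.55, edgeR adjusted p = 2.4e-05), and it was not called with library size alone. LSM1, of mRNA decay, rose by 0.54 on the log2 scale and NFYB, a subunit of the CCAAT-binding factor, by 0.62. The groups of NFYB overlapped. Of the other subunits, added after their values were seen, NFYC was called lower (-0.25, edgeR adjusted p = 0.0167) and NFYA was not called (0.23, edgeR adjusted p = 0.0899).

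Genes of DNA replication, with which cluster histones are normally made, were lower. Of 30 S-phase genes, 28 fell and 0 rose (median log2 fold change -0.91). Over all genes tested, 25.4% were lower and 29.0% higher, with a median of 0.05. With library size alone 22 S-phase genes fell and 1 rose, against 10.1% lower and 56.5% higher over all genes. The largest changes were in TK1 (-1.61), MCM7 (-1.57) and CDC25A (-1.55). MCM7, a subunit of the replicative helicase, had 95.3, 82.3, 80.0 and 79.6 CPM in Rho0, against 238, 239, 265 and 259 CPM in the parental line. PCNA, the replication clamp, fell by 0.40 and was not called with library size alone. MKI67, a proliferation marker, had 84.5, 117, 134 and 203 CPM in Rho0, against 247, 261, 285 and 241 CPM in the parental line. Its Rho0 libraries differed among themselves, and the groups did not overlap (log2 fold change -0.94, edgeR adjusted p = 0.00348), while library size alone gave -0.53 (edgeR adjusted p = 0.0589). Fewer cells in S phase and less RNA per cell cannot be told apart in bulk RNA, and the part of replication in the histone changes was not tested.

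Of 25 histone chaperones, 11 fell and 1 rose (median -0.19), a called share near the 54.4% over all genes (25.4% lower, 29.0% higher, median 0.05). With library size alone 6 fell and 9 rose, against 10.1% lower and 56.5% higher over all genes. MCM2, ASF1B and TONSL, which handle histones at the replication fork, had the largest changes, at -1.34, -1.28 and -1.21. MCM2 is also on the S-phase list. ASF1B had 23.2, 20.8, 19.7 and 20.4 CPM in Rho0, against 47.5, 45.3, 57.7 and 54.9 CPM in the parental line (SE 0.10, edgeR adjusted p = 1.4e-06). The gene that rose was ATRX, of the H3.3 deposition complex with DAXX, singled out after its values were seen, with 43.2, 57.1, 72.5 and 122 CPM in Rho0, against 34.6, 39.0, 27.6 and 40.4 CPM in the parental line (log2 fold change 1.06 ± 0.27 SE, edgeR adjusted p = 0.00723). Rho0 replicate 4 was the highest for ATRX, NPAT and MKI67, which all climbed from Rho0 replicate 1 to 4. H2AFJ and H1FX fell in that order. The order was seen after the values were known and was not tested. Of histone genes outside the symbol rule, CENPA, the centromeric H3 variant, had 4.97 ± 0.971 CPM in Rho0 and 8.06 ± 0.567 CPM in the parental line (SD, n = 4 each). It fell (log2 fold change -0.69, edgeR adjusted p = 0.0023) but was not called with library size alone. Only 2 of the 10 such genes passed the filter on low counts, and CENPA was the 1 called, against 54.4% of all genes tested.

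Of 7 cell cycle inhibitors and pocket proteins tested, 2 rose and 2 fell, a share near that over all genes (54.4% called). CDKN1B, which encodes p27, rose to 28.6 ± 0.695 CPM in Rho0, against 20.2 ± 0.722 CPM in the parental line (SD, n = 4 each; log2 fold change 0.50, edgeR adjusted p = 1.1e-04). CDKN2C and CDKN2D fell by 0.84 and 0.44, the second not called with library size alone. CDKN1A, which encodes p21, had 237 ± 24.2 CPM in Rho0 and 218 ± 16 CPM in the parental line and was not called (log2 fold change 0.12, edgeR adjusted p = 0.271). It was called higher without Rho0 replicate 4 (0.18, edgeR adjusted p = 0.0479) and with library size alone (0.51, edgeR adjusted p = 6.1e-05).

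**Figure D5:**
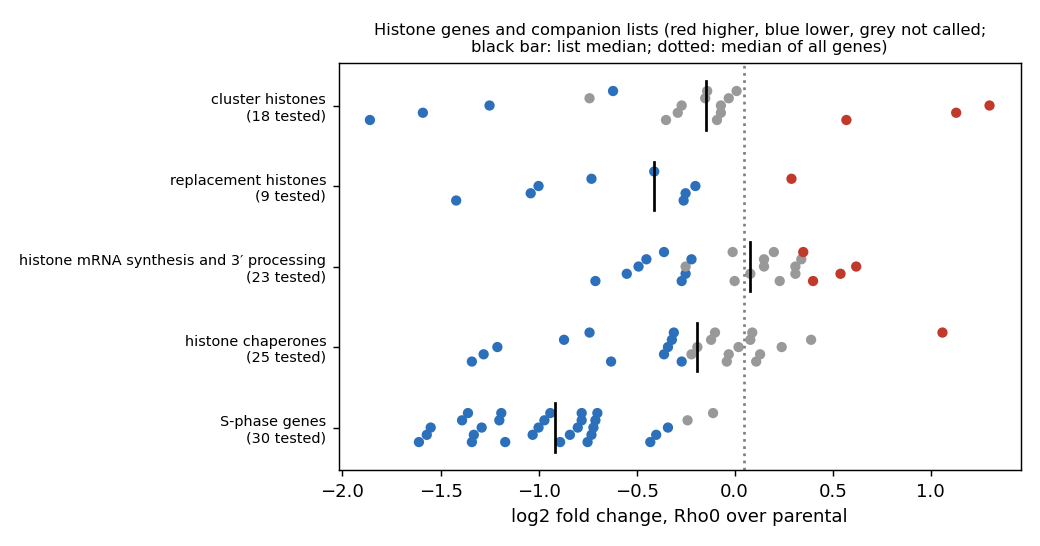
Log2 fold changes (Rho0 over parental) of tested cluster histones, replacement histones and 3 companion lists, 1 point per gene, coloured by call, with the list median as a black bar and the median of all genes (0.05) dotted. S-phase genes (median -0.91) lie farthest to the left, and the cluster histones spread on both sides.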

How the data were processed

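RNA-seq was measured in 8 libraries, 4 of Rho0 and 4 of parental Ea.hy926, made by poly(A) enrichment with a strand-specific kit, per the labels' protocols. The authors deposited estimated counts per Ensembl gene (38010 IDs) and a log2 table of 12885 genes. Per the submitters' processing notes, GRCh38 and the tools edgeR, limma and kallisto were used; versions, annotation release and strand setting are not given in the sources used here. Counts were rounded and fitted with edgeR 4.0.16 (R 4.3.3): TMM, filterByExpr with a minimum count of 10, quasi-likelihood F-test, Benjamini-Hochberg over all 15184 genes tested. The fit was tested on simulated data. Symbols, transcripts and coordinates came from GENCODE 29. Uniqueness is the share of a gene's 31-base words found in transcripts of no other gene on either strand. Members and lists were chosen with earlier results of these data known. Named genes are the replacement histones, the 14 tested cluster genes with the highest mean CPM, up to 4 called cluster genes per direction with at least 1 CPM, up to 3 called genes per list with at least 5 CPM in the higher line, and SLBP, NPAT, CENPA, MKI67, PCNA and CDKN1A. Alternatives were other scalings, filters, DESeq2 1.42.0, a replicate block, limma 3.58.1 on counts (voom) and on the log2 values deposited by the authors, and the fit without each library in turn. Summing of near-identical copies was added after seeing the data. No 2 libraries of a line agreed within sampling noise. Chi-square per degree of freedom ran from 4.13 (parental replicates 1 and 2) to 106 (Rho0 replicates 1 and 4). Counting precision at low counts is limited, and 3 counts were worth 0.0676 to 0.226 CPM. Tables and figures used Python 3.11.15, pandas 2.3.3, numpy 2.4.6 and matplotlib 3.10.9.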

Additional observations from a re-analysis of the deposited data

Results flagged for a closer look

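In 8 of 102 groups of 4 libraries examined, 1 library lay far from the other 3, where chance alone flags about 1 in 20 groups. H3F3B was highest in Rho0 replicate 1 (183 CPM, the others 167 to 168). H2AFV was lowest in Rho0 replicate 4 (63.3 CPM, the others 69.1 to 69.6). HIST1H2AC was also lowest in Rho0 replicate 4 (1.85 CPM, the others 2.49 to 2.53). HIST1H1C was lowest in parental replicate 1 (3.76 CPM, the others 5.01 to 5.16), still above every Rho0 library. HIST3H2BB was lowest in parental replicate 1 as well (0.459 CPM, the others 0.512 to 0.517). MCM7 was highest in Rho0 replicate 1 (95.3 CPM, the others 79.6 to 82.3), and CDC25A lowest in Rho0 replicate 3 (7.29 CPM, the others 8.51 to 8.72). The sum of the copies HIST2H2AA3 and HIST2H2AA4 was highest in Rho0 replicate 2 (2.94 CPM, the others 1.69 to 1.88), the library in which HIST2H2AA3 was assigned counts.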

How the results depend on the processing

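Library size alone, in place of TMM, moved the most values: 8583 genes were higher and 1540 lower in Rho0 (56.5% and 10.1%), the cluster median was 0.24, and 2 replacement genes were higher and 4 lower (median -0.02). It gave 14 higher and 0 lower for histone mRNA synthesis and 3′ processing, 9 and 6 for chaperones, 4 and 1 for CDK inhibitors and pocket proteins, 1 and 0 for histone genes outside the rule, and 1 S-phase gene higher. Log2 ratios of summed CPM were then 0.09 (cluster), 0.03 (replacement), -1.47 (H1), 0.39 (H2A), 0.30 (H2B), -0.50 (H3) and 0.06 (H4). Signs turned for H1F0 (0.13), H2AFY (0.19), H3F3A (0.14), HIST1H2BK (0.32), HIST3H2A (0.25), HIST2H2AA4 (0.04), HIST1H4I (0.30), HIST2H4A (0.33), HIST1H2BN (0.11), HIST3H2BB (0.13) and NPAT (0.39). All of these lay below the median of all genes under that scaling. The cause of the moves was not tested. A filter of 50 counts in 4 libraries tests fewer genes and left 0 cluster genes higher and 2 lower, and no filter gave 12 lower and a median of -0.55.

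Genes near 0 and not called with TMM changed sign elsewhere. HIST2H4B was at -0.04 with the DESeq2 Wald test, -0.03 with DESeq2 size factors, -0.02 with copies summed, -0.01 without mitochondrially encoded genes, and -0.18 to -0.04 where leaving out 1 library turned it. HIST2H4A was at 0.03 with limma-trend on the deposited log2 table, 0.32 with limma-voom and 0.17 with the replicate block, and 0.00 to 0.34 where leaving out 1 library turned it. NPAT was at 0.03 with the filter of 50 counts and 0.01 with no filter, and 0.02 to 0.13 where leaving out 1 library turned it, but without Rho0 replicate 4 it was called lower (-0.34, edgeR adjusted p = 0.0499).

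Leaving out 1 library gave 3774 to 4591 genes higher and 3415 to 4391 lower. Cluster genes ranged over 2 to 3 higher and 4 to 6 lower (median -0.37 to -0.13), and replacement genes over 5 to 8 lower (median -0.45 to -0.39). Processing genes ranged over 4 to 8 higher and 5 to 10 lower, chaperones over 1 to 3 and 10 to 12, CDK inhibitors over 1 to 3 and 2 to 3, and S-phase genes over 28 to 29 lower. Summed log2 ratios ranged over -0.34 to -0.28 (cluster), -0.41 to -0.34 (replacement), -2.02 to -1.71 (H1), -0.07 to 0.08 (H2A), -0.13 to -0.04 (H2B), -1.01 to -0.80 (H3) and -0.38 to -0.28 (H4). HIST2H2AA4 was called lower without parental replicate 3 (-0.43, edgeR adjusted p = 0.0483).

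Replicate numbers did not pair the libraries: deviations of same-numbered libraries correlated at -0.135, 0.037, 0.002 and 0.155, and only replicate 4 matched its own number best. With the replicate block, 4215 genes were higher and 3802 lower, cluster genes were 3 higher and 4 lower (median -0.19), and replacement genes 1 higher and 7 lower (median -0.41). Depth limits the 53 untested cluster genes, where 1 count in Rho0 replicate 2 is worth 0.0753 CPM.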
